A study of Homo sapiens with 4 samples.

Results

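Olfactory receptor genes on human chromosome 11 encode odorant receptors and lie in tandem clusters, and their open chromatin was examined in cells with and without DEK. Members were the protein-coding genes of the RefSeq table whose symbols follow the olfactory receptor pattern (OR, a family number, a subfamily letter, a member number) and which lie on chromosome 11. There were 171 such genes among 20056 protein-coding genes, against 221 placed receptor genes on other chromosomes. The positions of 3 members, OR8U8, OR8U9 and OR9G9, are given on another scaffold, so 168 members were analysed. The values came from ATAC-seq, in which a transposase inserts adapters into open DNA, in 786-O, an established human renal carcinoma line. There were 2 DEK KO libraries, made by infecting cells that express Cas9 with virus carrying guide RNAs against DEK and sorting single cells. Beside them stood 2 WT control libraries, labelled as negative control, with WT as the genotype and Cas9 in the description. The Cas9 came from a LentiCas9-Blast virus, and the cells that carry it were a clone. Nothing in the labels tells whether replicates were grown from different clones or in different cultures. The p-values therefore place each group difference among the reassignments of these 4 libraries, whose spread may be partly technical.

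Olfactory receptors are G protein-coupled receptors of the nasal sensory neurons. Each neuron transcribes a single receptor allele, while the rest of the family is packed in heterochromatin. In mouse, receptor choice depends on the factors LHX2, LDB1 and EBF, and silencing depends on histone H3 lysine 9 methylation. Class I receptors, the fish-like families OR51, OR52, OR55 and OR56, lie in a single human cluster on chromosome 11, and the others are class II. DEK is a chromatin protein that binds DNA, acts as a histone chaperone and has been linked to heterochromatin. The comparison asked whether these closed clusters open without DEK.

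In these cells receptor start sites were almost all without a peak, in either genotype. RefSeq listed 138 start windows, from 250 bases before to 50 bases after a start, for 135 of the 168 members. Only 3 of them were touched by a peak in any list, at OR6A2, OR52N2 and OR52N5. Their sequences on GRCh38.p14 from RefSeq are shown because they are the receptor starts at which a peak was called. The OR6A2 window is chr11:6799640-6799939 on the minus strand, the OR52N2 window chr11:5808674-5808973 on the plus strand, and the OR52N5 window chr11:5778618-5778917 on the minus strand. Each is written 5′ to 3′, and capitals mark the bases inside the merged ATAC region.
OR6A2: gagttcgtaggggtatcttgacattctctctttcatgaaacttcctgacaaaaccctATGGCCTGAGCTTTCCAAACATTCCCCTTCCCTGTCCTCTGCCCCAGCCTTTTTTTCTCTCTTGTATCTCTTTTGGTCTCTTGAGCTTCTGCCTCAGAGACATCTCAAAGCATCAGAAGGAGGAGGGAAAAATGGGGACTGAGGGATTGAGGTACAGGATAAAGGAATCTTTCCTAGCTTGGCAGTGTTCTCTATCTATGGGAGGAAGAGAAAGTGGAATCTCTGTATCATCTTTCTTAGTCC
OR52N2: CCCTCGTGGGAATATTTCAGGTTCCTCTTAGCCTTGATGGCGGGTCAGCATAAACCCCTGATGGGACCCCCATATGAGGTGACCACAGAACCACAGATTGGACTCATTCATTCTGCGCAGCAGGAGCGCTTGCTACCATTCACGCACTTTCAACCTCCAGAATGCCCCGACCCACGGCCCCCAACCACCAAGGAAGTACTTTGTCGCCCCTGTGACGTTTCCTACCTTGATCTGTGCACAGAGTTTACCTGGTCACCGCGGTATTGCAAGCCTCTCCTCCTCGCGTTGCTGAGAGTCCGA
OR52N5: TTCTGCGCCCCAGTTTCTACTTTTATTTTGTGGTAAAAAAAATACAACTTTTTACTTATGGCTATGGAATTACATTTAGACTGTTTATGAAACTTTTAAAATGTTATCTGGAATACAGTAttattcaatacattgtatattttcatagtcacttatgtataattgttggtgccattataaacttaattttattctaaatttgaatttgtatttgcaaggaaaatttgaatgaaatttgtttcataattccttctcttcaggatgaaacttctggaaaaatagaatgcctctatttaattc
The OR6A2 window had a peak in each DEK KO list and in no WT control list. The OR52N2 window was called in all 4 lists and lay wholly inside its region. The OR52N5 window was called in DEK KO replicate 1 only, and 120 of its bases lay inside the region. It belongs to a start inside the annotated span (chr11:5776165-5783355), and the other listed start window of this gene had no peak.

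OR6A2, a receptor linked to the smell of aldehydes in coriander, was the one member with a KO-only region over its start. Peaks of the 4 lists that shared 1 bp or more were joined into regions, and a KO-only region is one with peaks from both DEK KO libraries and from no WT control library. The region (chr11:6799515-6799882) covered the annotated start of the gene (chr11:6791736-6799689) and 243 bases of the start window. Its fold enrichment over background, as the authors' peak caller gave it, was 6.52 in DEK KO replicate 1 and 5.18 in DEK KO replicate 2. Within their own lists these peaks stood at percentiles 45.2 and 26.4 of −log10 p. Both DEK KO libraries held a peak of middling to low rank there, and no peak was listed in either WT control. A missing peak says that the signal did not pass the caller's limit, not that it was zero.

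OR52N2 is a class I receptor with an open start in every library. Its region (chr11:5808148-5809432) stood 6.17-fold and 7.25-fold over background in DEK KO, against 10.1-fold and 7.67-fold in WT control. The percentiles within the lists were 41.8 and 44.8 in DEK KO and 63.5 and 53.4 in WT control. Its start window held 14 CpG dinucleotides and 55.3% GC, whereas the windows of OR6A2 and OR52N5 held 1 CpG each, with 45.3% and 26.0% GC. The OR52N5 region (chr11:5778798-5779183) had a fold of 3.09 and stood at percentile 2.86 of the DEK KO replicate 1 list, near the calling limit.

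Receptor starts differed from other gene starts in base composition and in peaks alike. The median GC content was 37.0% over the 138 receptor start windows on chromosome 11, against 62.3% over 1144 windows of the other protein-coding genes there. The median number of CpG dinucleotides was 1, against 21. Peaks touched 3 and 2 receptor windows in DEK KO replicates 1 and 2, and 1 and 1 in WT control replicates 1 and 2. Among the other genes of the chromosome, 58.3% and 59.2% of start windows were touched in the DEK KO lists, and 58.7% and 57.6% in the WT control lists. The 2 groups were also compared at like GC content. Between 32.8% and 41.8% GC, the interquartile range of the receptors, no receptor window of 68 was touched in any list. In the same range 8 and 8 of 75 windows of other chromosome 11 genes were touched in DEK KO, and 7 and 7 in WT control. Whether GC affects the calling of peaks in these libraries was not tested.

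**Figure D1:**
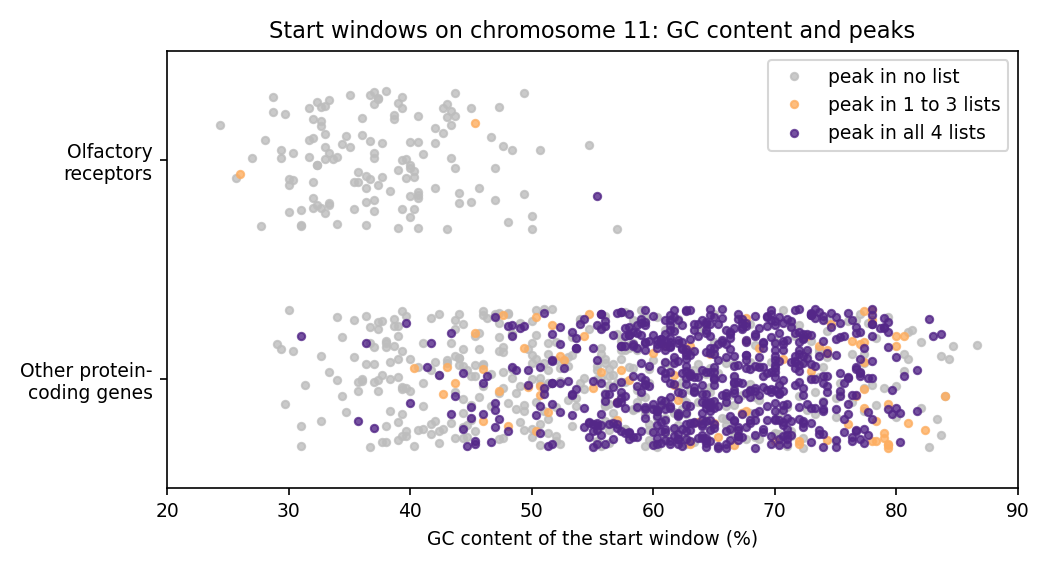
GC content in percent (horizontal axis) of start windows on chromosome 11 for olfactory receptors and other protein-coding genes (rows; points are spread vertically at random), coloured by the number of lists with a peak. Receptor windows lie at a median of 37.0% GC and 3 of 138 carry a peak, while most of the other genes lie at higher GC and many are open in all 4 lists.

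The letters of known receptor promoter elements were also counted, on both strands. TAATTA, a homeodomain core, was present in 34 receptor windows (24.6%), against 3.40% of all 22132 protein-coding start windows. The word TATAAA, bound by the TATA-binding protein, was present in 50 (36.2%), against 9.46%. The palindromic core of the O/E (EBF) site was present in 2 (1.45%), against 1.38%. The first 2 elements are AT-rich, as are the receptor windows, and no count describes a bound site.

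Across the whole gene windows, the receptor loci were sparse in peaks in all 4 libraries. A window was the gene span plus 10 kb on each side. Overlapping windows were merged into 90 intervals of 3.46 Mb, which is 2.58% of the chromosome between its first and last protein-coding gene. These windows held 51 and 47 peaks in DEK KO replicates 1 and 2, and 38 and 41 peaks in WT control replicates 1 and 2. The density was 14.7 and 13.6 peaks per Mb in DEK KO (95% exact Poisson intervals 10.97 to 19.4 and 9.97 to 18.05). It was 10.97 and 11.8 peaks per Mb in WT control (7.77 to 15.1 and 8.50 to 16.1). Both DEK KO values lay above both WT control values, and the counting intervals of all 4 overlapped. On the rest of the chromosome the density was 37.2 and 36.4 peaks per Mb in DEK KO and 32.3 and 32.5 in WT control, also with both DEK KO values higher.

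**Figure D2:**
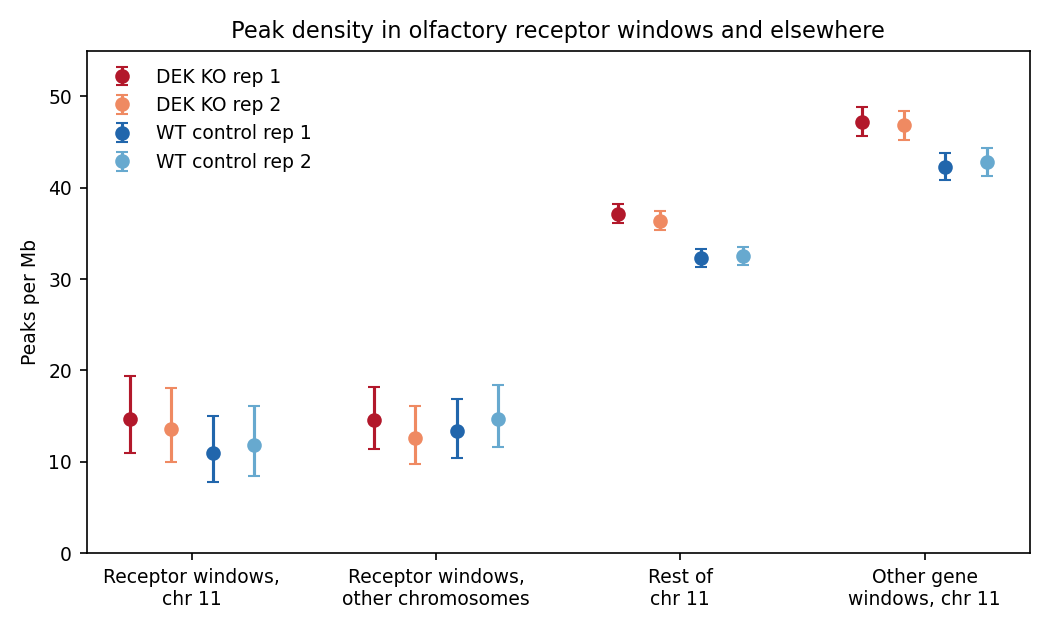
Peaks per Mb (vertical axis) in each library for receptor windows on chromosome 11 and on other chromosomes, the rest of chromosome 11, and windows of its other protein-coding genes; bars are 95% exact Poisson intervals, which cover counting error only. Receptor windows lie between 10.97 and 14.7 peaks per Mb and the rest of the chromosome between 32.3 and 37.2.

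Set against the rest of the chromosome in the same list, the windows were sparse in both genotypes. Their density was 39.6% and 37.3% of that of the rest of chromosome 11 in DEK KO, and 34.0% and 36.5% in WT control. The mean was 38.5% ± 1.62 in DEK KO and 35.2% ± 1.76 in WT control (SD, n = 2 each), a difference of 3.27 percentage points. The exact two-sided permutation test gave p = 0.333, the smallest that 2 libraries against 2 allow, so no difference can pass 0.05 by this test. With all lists reduced to the length of the shortest, the difference was 1.75 points (exact permutation p = 0.667), and with peaks of −log10 q of at least 5 it was 0.467 points (p = 0.667, exact). It was 2.12 points without DEK KO replicate 1, 4.41 without DEK KO replicate 2, 2.02 without WT control replicate 1 and 4.51 without WT control replicate 2. With windows of 50 kb on each side it was 0.603 points, and over the gene spans alone 5.43 points (exact permutation p = 1 each). The absolute density averaged 14.1 ± 0.817 peaks per Mb in DEK KO and 11.4 ± 0.613 in WT control (SD, n = 2 each), a ratio of 1.24, and the rest of the chromosome had a ratio of 1.13 (exact permutation p = 0.333 each). The difference in absolute density, 2.74 peaks per Mb, was 1.01 with lists of equal length and also 1.01 with −log10 q of at least 5. The DEK KO lists were longer throughout, with 102760 and 99508 peaks on chromosomes 1 to 22 and X, against 89563 and 90409 in WT control. The deposited lists give no read depth, and how far list length sets these counts was tested only through the lists of equal length.

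Other protein-coding genes lie among the receptors, among them TRIM21 and TRIM68, MMP26, OSBP and VWA5A. Of 71 merged regions in the windows, 3 lay within 1 kb of such a gene. Over the 3.25 Mb farther than 1 kb from them the density relative to the rest of the chromosome was 39.8% and 38.1% in DEK KO, and 33.4% and 37.0% in WT control. The mean difference was 3.77 points (exact permutation p = 0.333), 0.166 points with peaks of −log10 q of at least 5, 1.95 with lists of equal length, 2.33 with 50 kb windows and 1.96 without WT control replicate 1.

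The covered length of the windows overlapped between the genotypes. Peaks covered 0.894% and 0.663% of window bases in DEK KO replicates 1 and 2, and 0.646% and 0.746% in WT control replicates 1 and 2. DEK KO replicate 2 lay between the WT control libraries, and the difference was 0.0823 percentage points (exact permutation p = 0.667). Without DEK KO replicate 1 the difference turned to -0.0332 points. On the rest of the chromosome peaks covered 2.57% and 2.36% of bases in DEK KO, and 2.25% and 2.35% in WT control.

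Receptor windows on other chromosomes, 5.23 Mb around 221 genes, had a like density, and there the libraries of the genotypes overlapped. They held 76 and 66 peaks in DEK KO replicates 1 and 2, and 70 and 77 in WT control replicates 1 and 2. The density was 13.6 ± 1.35 peaks per Mb in DEK KO and 14.1 ± 0.947 in WT control (SD, n = 2 each; exact permutation p = 0.667). The ratio of 0.966 there stands beside 1.24 on chromosome 11, and the difference between the ratios was not tested.

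Merging the lists gave 71 regions in the receptor windows, and most of those that parted the genotypes were called in a single list. KO-only regions numbered 4 (5.63%, 95% exact binomial interval 1.56 to 13.8). The same class made up 6.23% of 6342 regions on the rest of chromosome 11 and 6.26% of the whole union of 138467 regions. WT-only regions, called in both WT control lists and neither DEK KO list, numbered 1 (1.41%, 0.0357 to 7.60), beside 2.40% on the rest of the chromosome and 2.57% of the union. Both shares lay near the background, so they set the receptors apart from the rest of the chromosome in neither direction. Regions called in all 4 lists numbered 25 (35.2%, 24.2 to 47.5), against 48.2% on the rest of chromosome 11 (46.9 to 49.4). Single-list regions were 10 and 8 in DEK KO replicates 1 and 2, and 3 and 2 in WT control replicates 1 and 2. On the rest of the chromosome they were 562 and 549 in DEK KO, and 251 and 306 in WT control. The ratio of DEK KO to WT control single-list regions was therefore 3.60 (18 against 5) in the receptor windows and 1.99 on the rest of the chromosome. It was 0.742 (23 against 31) in receptor windows on other chromosomes and 1.73 over the whole union, and the differences between these ratios were not tested.

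**Figure D3:**
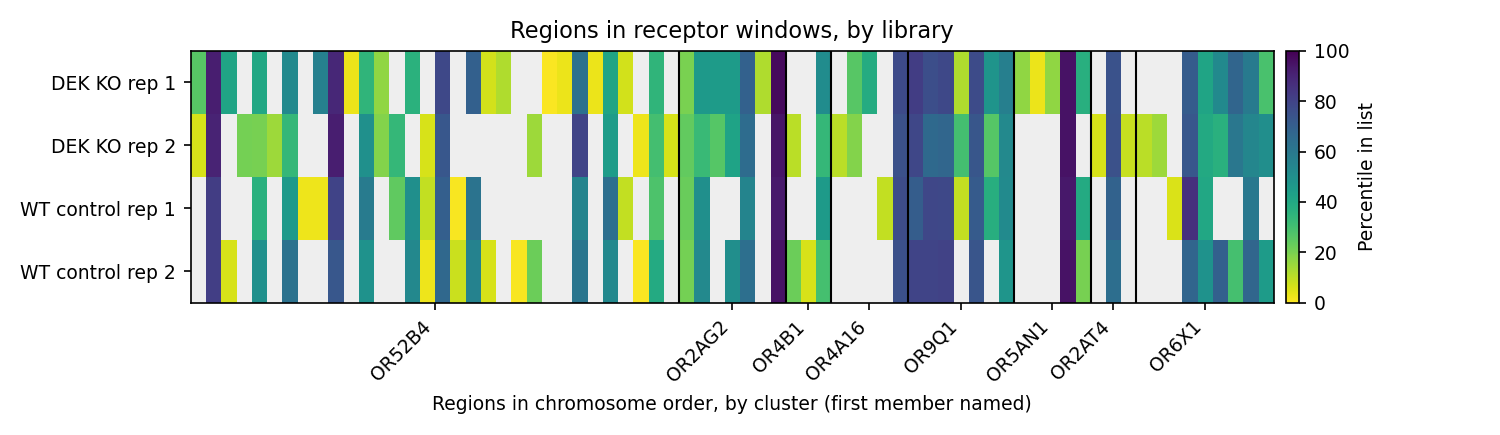
The 71 regions in receptor windows (columns, in chromosome order, black lines between clusters) in the 4 libraries (rows), coloured by the percentile of −log10 p in the library's own list, grey where no peak was called. The 25 regions called in all lists are mostly dark, and the columns filled in DEK KO only are mostly pale, that is of low rank.

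Beside OR6A2, a KO-only region overlapped the span of 1 further member, OR52A5, a class I receptor (chr11:5128776-5138356). Its region (chr11:5129128-5129579) stood 4.12-fold and 4.49-fold over background in the DEK KO libraries, at percentiles 16.8 and 18.7. It lay far from the listed start of the gene, at the other end of the span. The third KO-only region (chr11:4480693-4481774) lay 0.872 kb from OR52K1, another class I receptor, with folds of 4.80 and 3.45 and percentiles 26.1 and 6.22. The fourth (chr11:55715091-55715513) lay 8.26 kb from OR5D3, a class II receptor, over the receptor pseudogene OR5D2P. Its folds were 4.80 and 4.49, at percentiles 26.1 and 18.7. None of the 4 reached the middle of its list in either DEK KO library. Across their 8 peaks −log10 q ran from 2.69 to 10.3, and with −log10 q of at least 5 the 1 KO-only region left was that of OR6A2. The median of the lowest percentiles was 17.8 over these 4 regions and 22.7 over the 395 KO-only regions on the rest of chromosome 11. Without DEK KO replicate 1, a call in replicate 2 alone sufficed and 12 of 61 regions (19.7%) were KO-only, beside 16.4% on the rest of the chromosome. Without DEK KO replicate 2 there were 14 of 63 (22.2%), beside 16.6%. Without WT control replicate 2 there were 8 of 69 (11.6%), beside 9.73%. Without WT control replicate 1 there were 6 of 68 (8.82%), below the 9.96% on the rest of the chromosome.

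The WT-only region (chr11:5367124-5367377) lay within the span of OR51B5, a class I receptor whose annotated span extends over OR51B6, OR51M1, OR51Q1, OR51I1, OR51I2 and OR52D1. Its folds were 2.46 and 2.78 in WT control replicates 1 and 2. The percentiles were 0.980 and 8.05, at the weak end of both lists. It was absent with −log10 q of at least 5, when no region was WT-only, and 2 regions were WT-only with lists of equal length.

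At the level of genes, 108 of the 168 members had no peak in their window in any list. The number with a window peak was 46 and 44 in DEK KO replicates 1 and 2, and 36 and 35 in WT control replicates 1 and 2. The mean was 45 ± 1.41 members in DEK KO and 35.5 ± 0.707 in WT control (SD, n = 2 each), with both DEK KO libraries above both controls (exact permutation p = 0.333). The ratio of the means was 1.27. Among the 1129 other protein-coding genes of the chromosome, 91.1% and 91.3% had a window peak in DEK KO and 89.5% and 89.7% in WT control, a ratio of 1.02. With most of those genes already called in every library, their ratio has little room to rise. Among the 221 receptors on other chromosomes, 56 and 52 had one in DEK KO and 58 and 55 in WT control, a ratio of 0.956. The differences between these ratios were not tested. The difference of 9.5 members was 3 with −log10 q of at least 5, 6 with lists of equal length and 5.5 with windows of 5 kb. Neighbours share windows, since 17 of the 71 regions lay in more than 1 window, so members are not independent. A window peak in each DEK KO library and in no WT control library was found at 3 members, OR2AG1, OR6A2 and OR5D3. The same pattern held for 1.24% of the 1129 other protein-coding genes of chromosome 11 and 0.974% of all placed protein-coding genes. The reverse pattern was found at 0 members, beside 0.354% of the other genes of the chromosome and 0.232% of all placed protein-coding genes. OR2AG1 and OR6A2 share 1 region. With 3 members on 2 regions, the count gives no separate evidence from the region classes.

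Peaks over the receptor spans themselves were rarer still. Over the 4 lists, 16 members (9.52%) had a merged region on their span, against 925 of the 1129 other genes of the chromosome (81.9%), whose median span was 18.2 kb against 1.10 kb for the receptors. The number of members with a peak on the span was 14 and 9 in DEK KO replicates 1 and 2, and 6 and 6 in WT control replicates 1 and 2. The mean was 11.5 ± 3.54 in DEK KO and 6 ± 0 in WT control (SD, n = 2 each; exact permutation p = 0.333). The difference of 5.5 members was 1.5 with −log10 q of at least 5, 3.5 with lists of equal length and 3 without DEK KO replicate 1.

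Of these 16 members, 10 had a span peak in DEK KO lists alone and 0 in WT control lists alone. The 10 are 5.95% of the members, beside 3.10% of the other protein-coding genes of chromosome 11 and 3.16% of all placed protein-coding genes. A span peak in WT control lists alone was found at 2.04% and 1.51% of the same background genes. Most background genes had a span peak in some list, 925 of 1129 and 16197 of 19821, against 16 of 168 members. Genes with a span peak in both genotypes cannot count as called in 1 alone, so these shares are not like for like. The difference between them was not tested. For receptors on other chromosomes the shares were 3.17% in DEK KO lists alone and 4.52% in WT control lists alone. Only OR52A5 and OR6A2 had the span peak in both DEK KO libraries. DEK KO replicate 1 alone reached the spans of OR51D1, OR51L1, OR52D1, OR52N5, OR5D3 and OR5A1, the receptor for the violet odorant beta-ionone. DEK KO replicate 2 alone reached those of OR6M1 and OR6T1. Most of these single-list peaks were weak, at percentiles of 2.86 at OR51L1, 2.86 at OR5A1, 10.5 at OR6M1 and 14.7 at OR6T1, while that of OR5D3 stood at 38.3 and that of OR51D1 at 52.4. OR51D1 adjoins a region open in all 4 libraries, and in the other 3 the peak ended before the span. The remaining 6 members, OR52K1, OR51B5, OR52N2, OR56A3, OR9Q1 and OR8B3, had span peaks in libraries of both genotypes. OR51B5 (165 kb) and OR9Q1 (158 kb) have the longest annotated spans. Their windows held the most regions, 10 at OR51B5 and 5 at OR9Q1.

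The strongest regions in the windows were open in every library and mostly lay between genes or in other annotated spans. The highest-ranked (chr11:59706312-59707664) lay 5.25 kb from OR10V1 over the pseudogene RN7SKP192. Its fold was 7.73 in DEK KO replicate 1 and 11.04 in DEK KO replicate 2, against 7.78 in WT control replicate 1 and 8.44 in WT control replicate 2. The next (chr11:6925646-6927483) lay 3.65 kb from OR2D3 and overlapped the lower end of the span of ZNF215, a zinc finger gene. Its folds were 8.38 and 9.27 in DEK KO and 8.53 and 8.50 in WT control. OR52K1 (chr11:4482646-4493497) had a region at its end of higher coordinate (chr11:4492737-4493507), with folds of 11.2 and 13.7 in DEK KO and 11.5 and 11.1 in WT control. Regions 9.81 kb from OR5M1, 8.83 kb from OR51T1 and within OR9Q1 followed. The OR51T1 region, which lies within the span of MMP26, a metalloprotease gene, had folds of 12.6 and 16.0 in DEK KO and of 12.2 and 9.74 in WT control. That of OR5M1 had folds of 10.8 and 12.6 in DEK KO, and 10.8 and 10.8 in WT control. Folds belong to 1 list each, so these values describe the lists and carry no test.

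Window peaks had a lower median rank within their lists in DEK KO than in WT control, but not a larger share of the weakest peaks. The median percentile was 45.2 and 33.3 in DEK KO replicates 1 and 2, and 51.2 and 52.8 in WT control replicates 1 and 2. Peaks on the rest of the chromosome had medians of 51.3 and 50.8 in DEK KO, and 50.1 and 51.1 in WT control. The mean difference in the windows was -12.8 percentile points (exact permutation p = 0.333), with both DEK KO libraries below both controls. It was -6.16 with lists of equal length, -5.12 with −log10 q of at least 5, -6.82 without DEK KO replicate 2, -3.64 with windows of 50 kb and -24.1 over the spans alone. Percentiles of lists of unequal length cannot be set against each other directly, and the value from equal lists is the closer comparison. The share of window peaks at or above percentile 75 of their lists was 19.6% and 17.02% in DEK KO, and 21.1% and 17.1% in WT control. Among chromosome 11 peaks outside the windows it was 25.1% and 25.5% in DEK KO, and 25.9% and 25.5% in WT control. The share in the weakest 10% of their lists was 13.7% and 12.8% in DEK KO, and 21.1% and 17.1% in WT control. Both DEK KO libraries thus held the smaller share there (exact permutation p = 0.333). These shares rest on 7 and 6 peaks in DEK KO and 8 and 7 in WT control, counts that overlap (exact permutation p = 0.667). They were not recomputed with lists of equal length. Outside the windows it was 9.47% and 7.93% in DEK KO, and 9.40% and 7.50% in WT control. In every library the window peaks thus had a larger share of weakest and a smaller share of strongest peaks than those outside. The strongest numbered 10 and 8 in DEK KO, and 8 and 7 in WT control. With so few peaks per library, these differences from the rest of the chromosome were not tested.

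**Figure D4:**
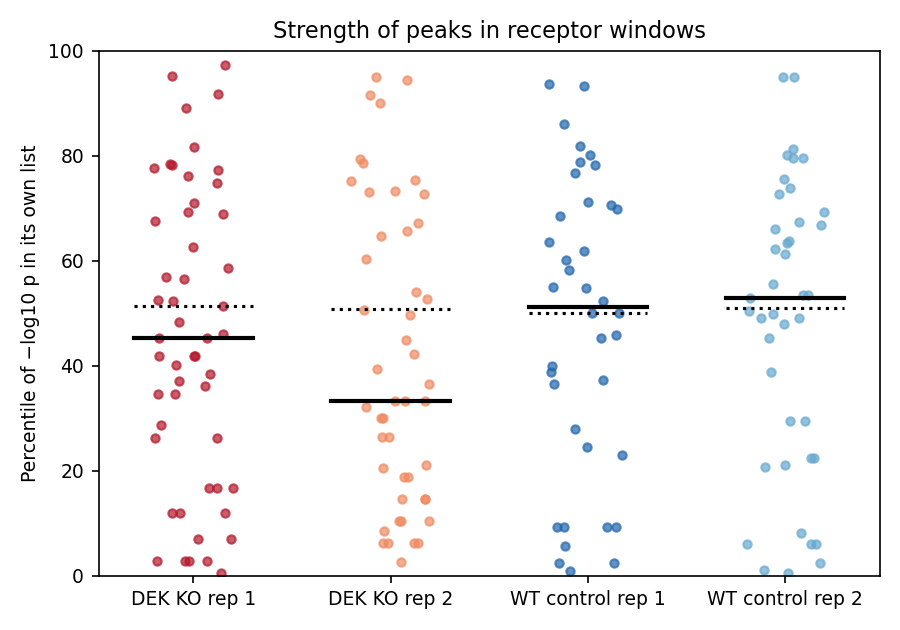
Percentile of −log10 p within the library's own list (vertical axis) for each peak in receptor windows, by library; solid bars are the medians of these peaks and dotted bars the medians of peaks on the rest of chromosome 11. The DEK KO medians are 45.2 and 33.3 and the WT control medians 51.2 and 52.8, while all 4 dotted bars lie between 50.1 and 51.3.

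The receptors form 11 clusters when neighbours up to 500 kb apart are joined, and the clusters differed from each other more than the genotypes did within most of them. The class I cluster, 55 members from OR52B4 to OR52W1 (chr11:4367263-6200186), held 32 regions. Its density was 19.2 and 15.7 peaks per Mb of window in DEK KO replicates 1 and 2, and 14.9 and 15.7 in WT control replicates 1 and 2, so that DEK KO replicate 2 and WT control replicate 2 had the same value. The 113 class II members held 39 regions, and their density was 12.5 and 12.5 peaks per Mb in DEK KO, and 9.06 and 9.92 in WT control. A region lay in the window of 27 class I members (49.1%) and 33 class II members (29.2%). Each class held 2 KO-only regions, and the WT-only region lay among class I genes.

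The emptiest large cluster was that of 46 class II members from OR4A16 to OR5AK2 (chr11:55343201-56989843), beside the centromere. Its windows held 3 and 3 peaks in DEK KO replicates 1 and 2, and 2 and 1 in WT control replicates 1 and 2. Within it, 26 members from OR5D13 to OR8U3 lay in a stretch of 730 kb (chr11:55727118-56457261) without a peak in any list. The smaller clusters OR5P2 to OR10A3, OR4C13 to OR4C12 and OR4C46 to OR4A5 had 0 peaks in all 4 lists. They hold 4, 2 and 2 members, and a count of 0 there says only that no peak was listed. None of them gained a peak in DEK KO.

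The remaining clusters held peaks in every library. The 8 members from OR2AG2 to OR2D3, which include OR6A2, held 6 and 5 peaks in DEK KO and 4 and 5 in WT control. The 7 members from OR4B1 to OR4A47 held 1 and 2 in DEK KO and 1 and 3 in WT control. The 13 members from OR9Q1 to OR5B21 held 7 and 7 in DEK KO and 7 and 5 in WT control. The 8 members from OR5AN1 to OR10V1 held 5 and 1 in DEK KO and 2 and 2 in WT control, so the DEK KO libraries lay on both sides of the controls. The single gene OR2AT4, known in skin cells as a receptor for a sandalwood odorant, had 1 and 3 peaks in DEK KO and 1 and 1 in WT control. The 22 members from OR6X1 to OR8A1 held 6 and 8 in DEK KO and 4 and 6 in WT control. Only the OR4A16 to OR5AK2 cluster had both DEK KO counts above both WT control counts, on 3 and 3 peaks against 2 and 1.

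**Figure D5:**
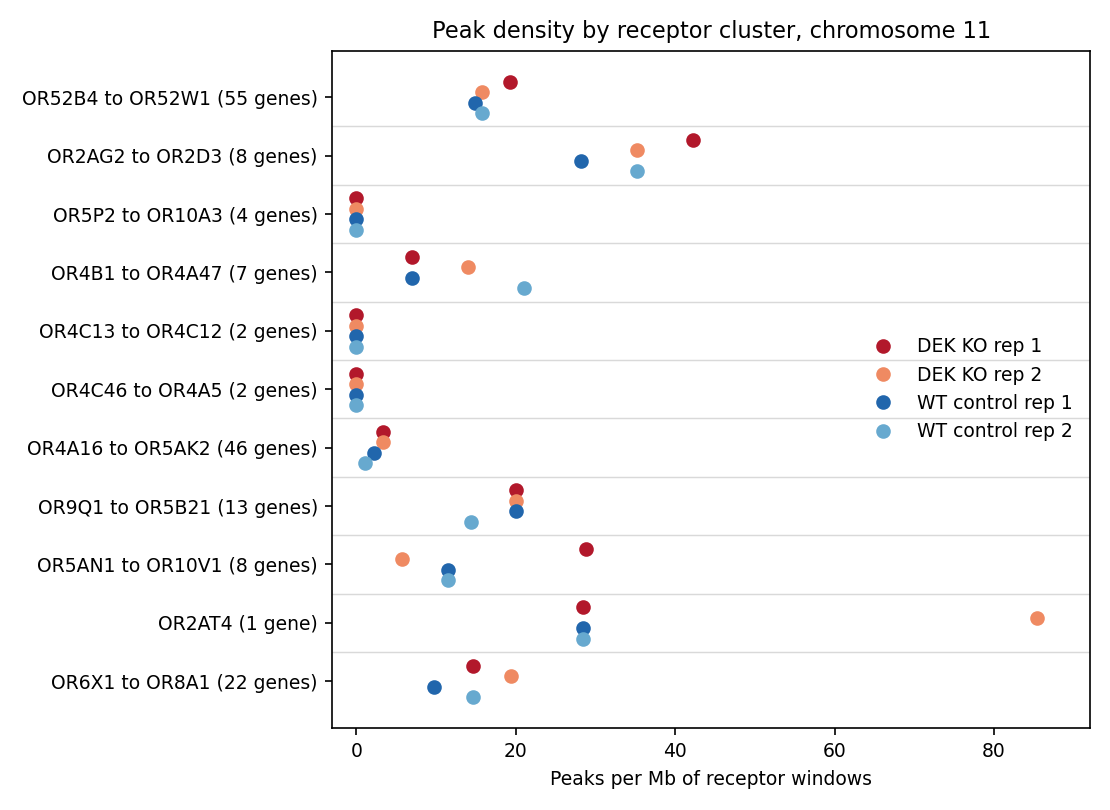
Peaks per Mb of receptor window (horizontal axis) for the 11 receptor clusters of chromosome 11 (rows, in chromosome order, with the number of members), 1 point per library. The clusters range from 0 peaks to 85.4 peaks per Mb at OR2AT4 in DEK KO replicate 2, and in most rows the points of the genotypes interleave or touch.

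OR51E1 and OR51E2, receptors also transcribed in prostate and, in mouse, in kidney, held little open chromatin here. OR51E2 had a single peak in its window, in WT control replicate 1, 7.25 kb from the gene and at percentile 2.38. OR51E1 had no peak on its span, and its window held 1 region of all 4 lists (chr11:4636606-4637805), which overlapped the lower end of the neighbouring OR51D1. That region stood 7.19-fold and 5.87-fold over background in DEK KO, and 7.14-fold and 8.73-fold in WT control.

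Genes that olfactory neurons use to read receptors were mostly without a peak at their ends. Of 12 markers of olfactory sensory neurons, 9 had no region within 1 kb of a gene end, among them OMP, the olfactory marker protein, GNAL, the receptor's G protein, and CNGA2, the cyclic nucleotide-gated channel. The other 3, ADCY3, CNGA4 and RTP2, had regions of all 4 lists. Of 17 factors of receptor choice and silencing, 13 had such a region, including LDB1, EBF1, EBF2 and the silencing genes SETDB1, EHMT2 and CBX5, and LHX2, EMX2, EBF3 and EBF4 had none. Among renal carcinoma genes, PAX8, EPAS1, VIM and CDH6 had one, and PAX2, CA9 and NDUFA4L2 had no region in any list. Across these 3 gene lists 0 genes had a KO-only or WT-only region at an end, where 6.26% of all merged regions were KO-only and 2.57% WT-only. The share of all protein-coding genes with a region within 1 kb of an end was not counted. No list can therefore be called rich or poor in peaks. By a narrower measure, peaks touched 54.3% and 55.1% of all protein-coding start windows in DEK KO, and 54.2% and 53.7% in WT control. The DEK gene itself (chr6:18223860-18264530) held 4 regions, all called in every list, which does not check the knockout.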

How the data were processed

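Each of the 2 DEK KO and 2 WT control ATAC-seq libraries has 1 peak list. MACS2 2.2.7.1, Bowtie2 2.2.5, Picard 2.26.9, SAMtools 1.7, cutadapt 1.18, ChIPseeker 1.32.1, DiffBind 3.6.5 and deepTools 3.5.1 appear in the submitters' processing notes, as do hg38 and GRCh38, with no settings. Read shifting, duplicate and multiply mapped reads, and depth per library are not given in the sources used here. Receptor genes have close paralogs, so a missing peak over a copied stretch is uncertain. Among the 138 start windows of members, the closest pair, OR52E6 and OR52E8, shared 69.7% of bases, and the median closest match was 57.8%. Coding sequence, pseudogenes and receptors on other chromosomes were not compared, so these values do not settle how reads from copies were placed. The labels' extraction text describes RNA and an mRNA kit, so how the libraries were made is not known.

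The deposited lists give a fold ratio of pileup over background at each summit, −log10 p and −log10 q, and a score that follows 10 times −log10 q. The values are the authors' and were used only within their list. From them were computed peak counts per territory, each peak's percentile of −log10 p in its list, and regions merged at 1 bp. The rest of chromosome 11 is 130.8 Mb between its first and last protein-coding gene, less the receptor windows. Gene spans and starts came from RefSeq for GRCh38.p14, and rows of a chromosome after its positions restart were taken to lie on other scaffolds. Libraries were compared by an exact two-sided permutation test over 6 assignments. Shares and densities carry exact 95% binomial or Poisson intervals, which cover counting error only. The steps used Python 3.11.15, numpy 2.4.6, pandas 2.3.3, scipy 1.17.1, biopython 1.88 and matplotlib 3.10.9, and were tested on simulated lists.

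Members and gene lists were chosen with earlier results of these data known. Genes were named by rule: members with a one-genotype region on the span, the members nearest to the highest-ranked regions of each class, those with most regions or an open start, cluster ends, and DEK. Members named for single-list peaks, OR51E1, OR51E2 and OR2AT4 among them, were chosen after their values were seen. One gene of the marker lists is not reported here. Alternatives covered list length, a −log10 q limit, window sizes of 0, 5 and 50 kb, summits in place of overlap, other reference territories, a 50% overlap, left-out libraries and pairing by number.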

Additional observations from a re-analysis of the deposited data

How the results depend on the processing

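The density of receptor windows relative to the rest of chromosome 11 stayed higher in DEK KO under all 13 alternatives run, by 0.467 to 5.43 points, and over window bases away from other genes by 0.166 to 5.58. For each measure compared between libraries the alternatives include pairing by replicate number, which leaves the mean difference as it was by construction. The exact permutation test cannot pass 0.05 with 4 libraries under any of them. The absolute density, the numbers of members with a window or span peak, and the median percentile also kept their direction in every alternative run. Covered bases turned round when a library was left out, from -0.0332 to 0.198 points over the 4 omissions. KO-only regions in the windows, 4 as reported, numbered 1 of 44 (2.27%) with −log10 q of at least 5, beside 6.73% on the rest of the chromosome. They numbered 2 of 28 (7.14%) with windows of 0 kb, beside 6.22%, and 7 of 159 (4.40%) with windows of 50 kb, beside 6.27%. With a library left out they numbered 6 to 14. WT-only regions, 1 as reported, numbered 2 of 62 (3.23%) with lists of equal length, beside 3.38% on the rest of the chromosome. They numbered 0 of 44 with −log10 q of at least 5, beside 2.93%, and 3 of 159 (1.89%) with windows of 50 kb, beside 2.40%. With a library left out they numbered 2 to 4. Fewer libraries make both classes easier to meet by construction, and on the rest of the chromosome the omissions moved the KO-only share to between 9.73% and 16.6% and the WT-only share to between 4.68% and 7.60%. The cause of the other shifts was not tested.

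With libraries paired by replicate number, a replicate block, the relative density differed by 3.27 points (exact sign-flip p = 0.5, the smallest that 2 pairs allow), and no call changed. The numbers do not pair the libraries by any label, and replicate differences in the 2 genotypes correlated at r = 0.0340 across 3080 shared regions of chromosome 11, which are not independent.

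Depth per library is unknown, and with 38 to 51 peaks per library in the windows the counting intervals of the libraries overlap. Peak lists hold no signal below the calling limit, so opening under that limit was not detectable.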

Other observations

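Receptor pseudogenes, inactivated copies that outnumber the intact genes, also had few peaks. Of 205 receptor pseudogenes placed on chromosome 11, 7 (3.41%) had a merged region on their span in any list, 3 of them a region of all 4 lists. The share was 9.52% for the 168 members, and the median spans were 0.936 kb for pseudogenes and 1.10 kb for members. KO-only regions touched 2 pseudogenes and WT-only regions 0, where 6.26% of all merged regions were KO-only and 2.57% WT-only, so nothing is read from 2 against 0. One of the KO-only regions is the one over OR5D2P near OR5D3.

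On other chromosomes, peaks touched 2 and 1 of 188 receptor start windows in DEK KO replicates 1 and 2, and 2 and 4 in WT control replicates 1 and 2. Median GC there was 38.3%, close to the 37.0% of chromosome 11.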
